A study of Mus musculus with 2 samples.

Results

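Immediate early genes and stress response genes were examined in single-cell RNA-seq data of sorted cells from the mouse colon. The members were 39 genes, taken by gene symbol from the 31053 genes in the count tables, and all 39 were seen in both libraries. The mice were chimeras made by giving CD45.2 donor bone marrow to CD45.1 recipients. The donors lacked the IL-10 receptor alone (IL-10R KO, hereafter KO) or the receptor together with ceramide synthase 2 (IL-10R/CerS2 DKO, hereafter DKO), which builds ceramides with very long acyl chains. Both groups thus lacked the IL-10 receptor in donor-derived cells, whereas the tissue of the host kept its own genotype. The sort was on CD11b, CD11c and CD64, which are carried by myeloid cells. The labels name the cells as macrophages and give no age, and the number of mice behind each library was not given in the sources used here. There was 1 library per genotype, so genotype, mouse, preparation and library cannot be told apart, and no test was possible. Intervals are at 95% and cover counting error only.

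Immediate early genes are transcribed within minutes of a stimulus without new protein synthesis. Many encode transcription factors, such as the Fos and Jun proteins that pair as AP-1, the Egr zinc-finger proteins and the Nr4a orphan nuclear receptors, and others encode feedback inhibitors that end the signal. Heat-shock genes encode chaperones that bind unfolded proteins, and the inducible ones are switched on by heat-shock factor when cells meet heat or other protein stress. In macrophages, microbial products induce many of these genes, and the same genes are known to be induced while a tissue is taken apart with warm enzymes. The colons of this study were digested with collagenase D. A colon that had not been digested, or had been kept cold, was not analysed here, so the part of the levels below that arose during the preparation was not tested.

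Promoter windows of these genes were read from RefSeq (GRCm38.p6), from 250 bases before to 50 bases after each annotated start, for the 33 of 39 members that were in the table. Egr1, Egr3, Ier2, Hspa8, Cd69 and Hes1 were not matched. The cyclic AMP response element TGACGTCA was found in the windows of 5 of 33 members (15.2%), namely Btg2, Dusp1, Ppp1r15a, Plk2 and Maff, and in those of 2.03% of all 27025 genes in the table. The CArG box, the motif of serum response factor, was found for 3 of 33 members (9.09%), Egr2, Zfp36 and Dusp5, and for 1.81% of all genes. The AP-1 motif TGANTCA was found for 2 of 33 members (6.06%), Zfp36l1 and Csrnp1, against 8.97% of all genes. A heat-shock element, GAANNTTC or TTCNNGAA, was found for 5 of 33 members (15.2%), Fosl2, Jun, Egr2, Hspa1a and Hspa1b, against 17% of all genes. Each motif reads the same on both strands, so 1 search covered both, and a match describes letters in the window and not a bound site. Windows of 6 members follow, 5′ to 3′ on the strand of the gene, with the motif in capitals. Hspa1a and Hspa1b are shown because these neighbouring genes carried the same heat-shock element, with its middle 100 bases before the start, in windows that were the same at 296 of 300 positions (98.7%). Dusp1 and Ppp1r15a are shown for the cyclic AMP response element, and Egr2 and Zfp36 for the CArG box. These 6 genes return below among those that were higher together in the same cells, except Egr2, which had too few UMIs for that comparison.
Hspa1a (chr17:34972107-34972406, minus strand): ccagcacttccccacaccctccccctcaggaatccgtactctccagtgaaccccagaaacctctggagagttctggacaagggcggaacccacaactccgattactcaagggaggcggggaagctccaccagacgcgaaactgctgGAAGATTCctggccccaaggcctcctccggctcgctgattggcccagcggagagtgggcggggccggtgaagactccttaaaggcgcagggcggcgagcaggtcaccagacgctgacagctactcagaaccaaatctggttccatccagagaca
Hspa1b (chr17:34959189-34959488, minus strand): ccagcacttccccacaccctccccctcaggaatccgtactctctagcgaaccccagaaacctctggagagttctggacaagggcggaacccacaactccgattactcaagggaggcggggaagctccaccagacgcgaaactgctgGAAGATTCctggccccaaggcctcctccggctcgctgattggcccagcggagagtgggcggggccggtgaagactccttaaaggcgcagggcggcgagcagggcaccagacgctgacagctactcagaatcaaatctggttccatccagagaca
Dusp1 (chr17:26508423-26508722, minus strand): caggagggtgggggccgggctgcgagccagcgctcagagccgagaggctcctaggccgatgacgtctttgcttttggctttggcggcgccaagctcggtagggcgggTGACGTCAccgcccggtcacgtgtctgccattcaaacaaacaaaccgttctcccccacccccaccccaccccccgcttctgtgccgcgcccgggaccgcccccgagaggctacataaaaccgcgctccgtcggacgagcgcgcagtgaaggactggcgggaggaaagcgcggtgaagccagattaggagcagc
Ppp1r15a (chr7:45526219-45526518, minus strand): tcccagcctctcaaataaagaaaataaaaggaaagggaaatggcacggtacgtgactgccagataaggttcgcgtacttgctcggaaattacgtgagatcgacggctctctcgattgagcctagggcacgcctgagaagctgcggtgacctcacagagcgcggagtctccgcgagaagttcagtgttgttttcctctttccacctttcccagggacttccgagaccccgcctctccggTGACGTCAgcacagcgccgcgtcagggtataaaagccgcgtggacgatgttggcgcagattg
Egr2 (chr10:67537619-67537918, plus strand): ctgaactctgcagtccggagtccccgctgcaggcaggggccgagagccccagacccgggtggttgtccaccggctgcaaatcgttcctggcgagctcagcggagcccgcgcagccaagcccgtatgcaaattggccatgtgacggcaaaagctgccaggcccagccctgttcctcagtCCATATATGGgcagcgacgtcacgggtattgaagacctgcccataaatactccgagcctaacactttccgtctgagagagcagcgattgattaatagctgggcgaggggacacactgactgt
Zfp36 (chr7:28379179-28379478, minus strand): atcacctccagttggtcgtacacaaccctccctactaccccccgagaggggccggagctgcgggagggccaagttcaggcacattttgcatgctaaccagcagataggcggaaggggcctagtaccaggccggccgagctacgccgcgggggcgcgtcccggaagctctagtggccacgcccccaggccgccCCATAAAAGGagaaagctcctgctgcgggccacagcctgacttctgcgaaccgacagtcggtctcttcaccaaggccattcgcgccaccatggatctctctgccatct

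In KO there were 2584 cell barcodes and 12549471 UMIs, and in DKO 742 barcodes and 3414944 UMIs, where a UMI is a molecular tag that counts each captured transcript once. After the filter on cells 2443 KO and 730 DKO cells were kept, and 1 barcode sequence occurred in both libraries. The deleted gene checked the labels, since Cers2 had 443 UMIs in KO and 0 in DKO monocyte/macrophage cells. Cells were gated by lists of marker genes that held none of the members. The gates gave 1560 KO and 341 DKO monocyte/macrophage cells, 119 and 35 neutrophils, 251 and 98 T cells, and 213 and 159 B cells or plasma cells, so the sorted cells were not all macrophages as labelled. Markers found in at least 20% of the gated cells were 15 of 16 for monocytes/macrophages, 7 of 10 for neutrophils, 9 of 9 in KO and 7 of 9 in DKO for T cells, and 7 of 8 for B cells or plasma cells. The genes most raised in the T cell gate over the other main classes included 4 of its own markers. They also included 2 markers listed for NK or other innate lymphocytes, Xcl1 and Nkg7, so such cells may be among those called T cells here. The median depth of a cell was 5474 UMIs in KO and 5453 in DKO for monocytes/macrophages, but 1667 and 1627 for neutrophils. The remaining cells fell into small gates of at most 11 cells, carried markers of several classes (88 and 23 cells), or passed no gate (184 and 57 cells). The dendritic cell gate held 11 cells in each library, but a cluster named dendritic from the same markers held 142 KO and 61 DKO cells. Other gates, that of monocytes/macrophages among them, may thus hold dendritic cells, and their part in the values below was not tested.

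Members together took 1.48% of all UMIs in KO and 1.45% in DKO. Their summed level, in UMIs per 10000 UMIs of the class, was highest in neutrophils, at 310 (302 to 317) in KO and 253 (241 to 266) in DKO. It was 153 (152 to 154) and 160 (158 to 161) in monocytes/macrophages, 107 (105 to 109) and 111 (108 to 115) in T cells, and 79.7 (77.6 to 81.9) and 92.6 (89.8 to 95.4) in B cells or plasma cells. The order of the 4 classes was thus the same in both libraries, and no interval of a class overlapped that of its neighbour in this order. The sum in neutrophils was 2.02-fold that in monocytes/macrophages in KO and 1.59-fold in DKO. Neutrophils also had the lowest share of ribosomal protein transcripts, with a median of 2.94% in KO and 3.64% in DKO against 17.5% and 18.3% in monocytes/macrophages. Because the level is a share of all UMIs, such a difference in the rest of the transcriptome enters it, and its part in the class order was not tested. UMIs of 3′ libraries were not divided by transcript length, and levels of different genes are therefore set side by side only as counts of transcripts captured.

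**Figure D1:**
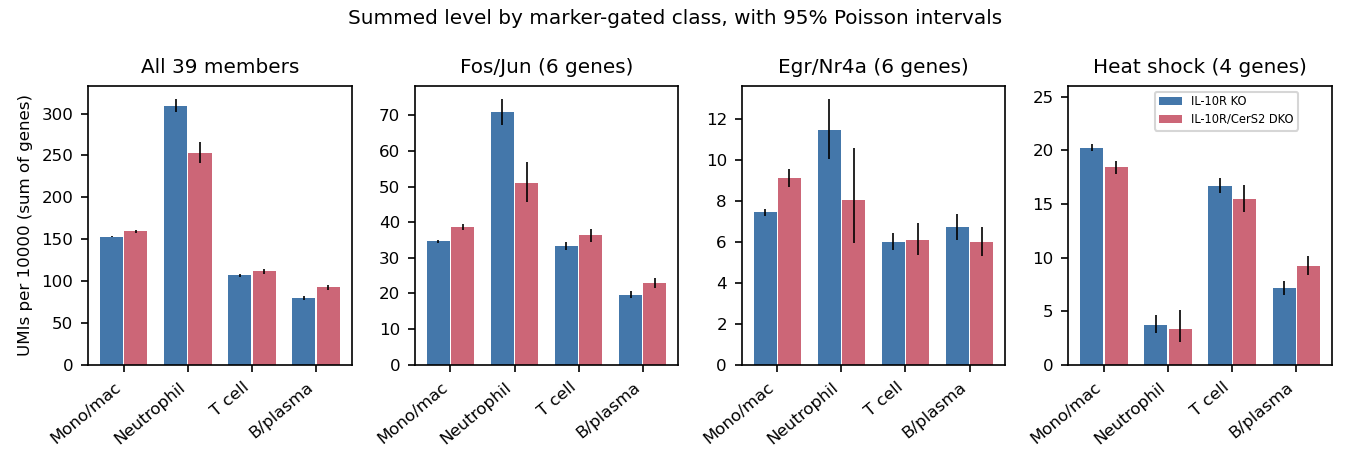
Bars give the summed level of members in UMIs per 10000 in the 4 main marker-gated classes of the KO and DKO libraries, for all 39 members and for the Fos/Jun, Egr/Nr4a and heat-shock genes, with exact 95% Poisson intervals. Neutrophils had the highest sum of all members, at 310 and 253, but the lowest sum of heat-shock genes, at 3.72 and 3.37.

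The 6 Fos/Jun genes, which encode the subunits of AP-1, summed to 34.6 UMIs per 10000 in KO and 38.6 in DKO monocytes/macrophages and to 33.3 and 36.3 in T cells. Neutrophils had more, with 70.8 and 51.0, and B cells or plasma cells less, with 19.7 and 22.8. The similar sums of monocytes/macrophages and T cells differed in make-up. Fos itself stood at 6.70 and 7.67 per 10000 in monocytes/macrophages and at 1.59 and 2.67 in T cells, a level 4.21-fold lower in KO and 2.87-fold lower in DKO. Fosl2, which encodes a Fos protein of later onset, went the other way, at 1.99 and 2.29 in monocytes/macrophages and 3.48 and 4.13 in T cells. Junb, the member of the group with most UMIs, was at 12.1 and 14.7 in monocytes/macrophages, 14.98 and 19.4 in T cells, and 7.55 and 11.3 in B cells or plasma cells. In neutrophils Junb was at 31.4 in KO but 11.9 in DKO, so that neutrophils had the highest level in one library and not in the other. Jund, whose transcript is present in most resting cells, ranged from 8.58 to 11.3 per 10000 over the other 3 classes and both libraries, and was at 12.5 and 21.8 in neutrophils.

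The 6 Egr/Nr4a genes were low in every class, with sums of 7.43 in KO and 9.09 in DKO monocytes/macrophages, 11.4 and 8.02 in neutrophils, 6.0 and 6.09 in T cells, and 6.71 and 5.99 in B cells or plasma cells. Intervals of T cells and of B cells or plasma cells overlapped in both libraries. Egr1, a zinc-finger factor induced by growth factors and microbial products, was at 1.60 and 2.15 per 10000 in monocytes/macrophages and at 0.45 and 0.28 in T cells. Nr4a1, the nuclear receptor that is induced by antigen receptor signals in lymphocytes, was at 3.20 and 3.27 in B cells or plasma cells, above the 1.49 and 2.14 of monocytes/macrophages, while KO neutrophils at 2.97 were within the counting interval of KO B cells or plasma cells. Egr3 was rare, with 60 UMIs in 1560 KO and 23 UMIs in 341 DKO monocytes/macrophages. Nr4a3 was the group's most abundant member in monocytes/macrophages, at 2.32 and 2.43 per 10000, and stood at 4.64 and 4.17 in neutrophils.

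The 4 heat-shock genes had their lowest level in neutrophils, with the other 3 classes in the same order as above. Their sum was 20.3 per 10000 in KO and 18.4 in DKO monocytes/macrophages, 16.7 and 15.5 in T cells, 7.15 and 9.22 in B cells or plasma cells, and only 3.72 and 3.37 in neutrophils, which was 5.42-fold and 5.34-fold lower than in monocytes/macrophages. Most of the sum came from Hspa8, the constitutive cytosolic chaperone, at 15.8 and 14.98 in monocytes/macrophages and 3.25 and 2.73 in neutrophils. The heat-inducible chaperone genes Hspa1a and Hspa1b were found in a minority of cells even among monocytes/macrophages. Hspa1a was seen in 24.8% of KO and 21.1% of DKO monocytes/macrophages, with up to 59 UMIs in 1 cell, and in 3.76% and 3.14% of the shallower B cells or plasma cells. In KO neutrophils both genes had 0 UMIs in 119 cells, which allows a level of up to 0.17 per 10000, and in DKO neutrophils each had 1 UMI in 35 cells. Hspa1a and Hspa1b lie 9951 bases apart on chromosome 17 and share many stretches of sequence. Of the 50-base windows of the Hspa1a transcript 58.8% also occur in Hspa1b, but none of the windows in the last 500 bases, where 3′ reads fall, were shared.

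Genes of RNA decay and growth restraint made up the largest group by UMIs, owing to Btg1, an antiproliferative gene that is high in resting leukocytes. Btg1 was at 86.3 per 10000 (82.5 to 90.4) in KO and 93.8 (86.3 to 102) in DKO neutrophils, against 33.2 and 30.1 in monocytes/macrophages, 23.3 and 23.2 in T cells, and 23.4 and 27.9 in B cells or plasma cells. The related Btg2 differed more between classes, with 25.5 and 24.1 in neutrophils and 2.84 and 3.82 in monocytes/macrophages, 8.99-fold and 6.31-fold higher. Zfp36, which encodes tristetraprolin, a protein that speeds the decay of cytokine mRNAs, was instead highest in monocytes/macrophages, at 4.42 and 4.56, and low in T cells, at 0.42 and 0.15. Among phosphatases that switch off MAP kinases, Dusp1 was at 18.4 in KO and 9.14 in DKO neutrophils, 3.88 and 4.86 in monocytes/macrophages, and only 0.24 and 0.55 in B cells or plasma cells. Dusp5 was at 3.98 and 2.77 in monocytes/macrophages. Klf6 and Klf4, zinc-finger factors of myeloid cells, were at 5.47 and 6.48 and at 3.15 and 2.89 in monocytes/macrophages, and Klf4 had 6 UMIs in KO and 0 in DKO neutrophils.

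Growth arrest and stress genes summed to 16.8 and 19.5 per 10000 in monocytes/macrophages, 49.1 and 30.8 in neutrophils, 7.60 and 7.97 in T cells, and 4.06 and 5.52 in B cells or plasma cells. Gadd45b, a stress sensor upstream of p38 and JNK, led the group with 22.4 and 16.4 in neutrophils and 6.41 and 6.31 in monocytes/macrophages. Atf3, a transcriptional repressor of inflammatory genes, was a myeloid gene here, at 4.47 and 7.21 in monocytes/macrophages and 9.15 and 3.85 in neutrophils but at most 0.29 in lymphocytes. Ier3, an early gene that protects cells from death, separated the classes sharply. It was at 17.9 and 14.6 in neutrophils and 7.53 and 6.999 in monocytes/macrophages, found in 70.8% and 66.9% of the latter, whereas B cells or plasma cells held 1 UMI in 213 KO cells and 1 UMI in 159 DKO cells. Ier2 was spread more evenly, from 1.97 to 3.34 over all 4 classes and both libraries. Cd69, which marks recently activated and tissue-resident lymphocytes, was at 1.60 and 1.51 in T cells, 1.17 and 1.59 in B cells or plasma cells, and 0.55 and 0.53 in monocytes/macrophages. Hes1, a target of Notch, was at 1.07 and 1.52 in monocytes/macrophages and 0.05 and 0.10 in T cells.

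**Figure D2:**
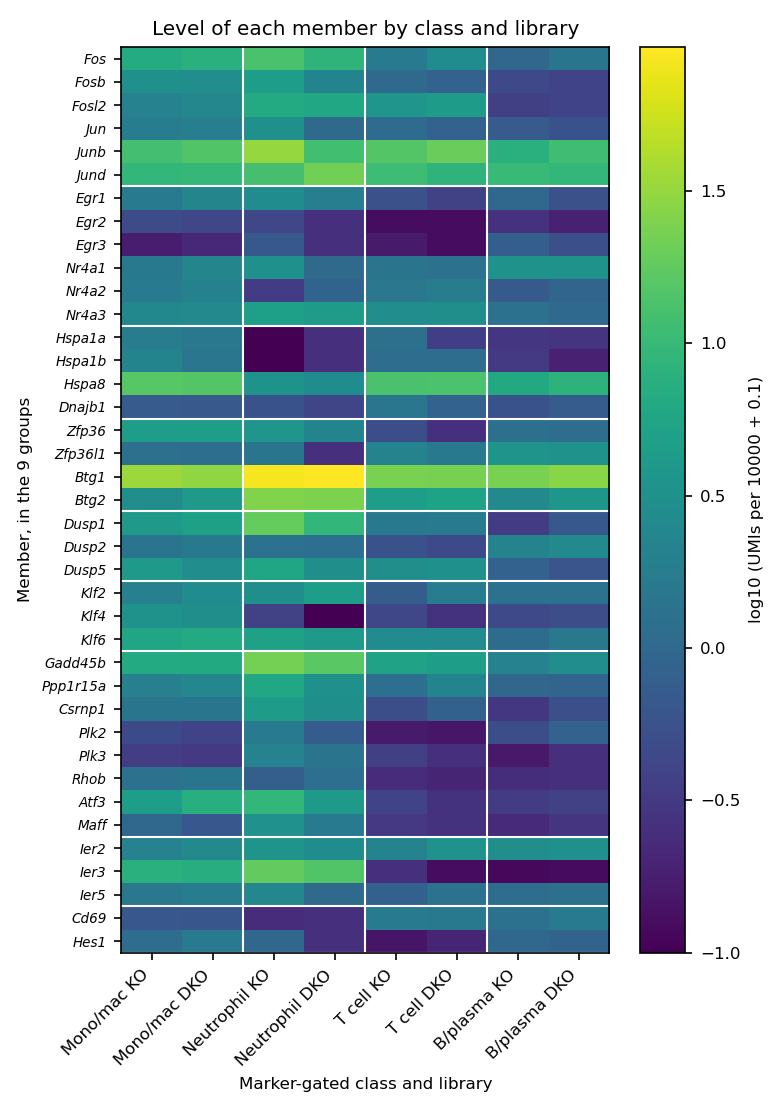
Each row is a member and each column a marker-gated class of 1 library, with the colour giving the level in UMIs per 10000 on a log scale. Btg1 was the highest member in neutrophils (86.3 in KO, 93.8 in DKO), while Hspa1a and Hspa1b were at or near 0 there.

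Counted gene by gene against monocytes/macrophages, a member was taken as different when it was past 1.5-fold in the same direction in both libraries. The minimum of 20 UMIs was taken over both classes together, for members and for all genes alike. A rare gene could thus pass it through its monocyte/macrophage UMIs alone. By this rule 13 of 39 members were higher in neutrophils, where 12% of 6854 genes were, and 6 were lower, where 46.4% of genes were. The 13 were Fosl2, Egr3, Nr4a3, Btg1, Btg2, Dusp1, Klf2, Gadd45b, Csrnp1, Plk2, Plk3, Maff and Ier3. The 6 lower were Nr4a2, Hspa1a, Hspa1b, Hspa8, Klf4 and Cd69, so 3 of the 4 heat-shock genes were among them. In DKO neutrophils Egr3, Hspa1a, Hspa1b, Klf4 and Cd69 had very few UMIs or none, so their calls there are weak. In T cells 2 members were higher, Fosl2 and Cd69, where 20.6% of 7394 genes were, and 18 members were lower, where 24.2% of genes were. In B cells or plasma cells 5 members were higher, Egr3, Nr4a1, Zfp36l1, Dusp2 and Cd69, where 20.6% of 7478 genes were, and 24 members were lower, where 26.9% of genes were. Among the 24 were Fos, Fosb, Fosl2 and Jun, all 3 Klf genes, and Hspa1a, Hspa1b and Hspa8. By the mean of the libraries 23 members were highest in neutrophils, 10 in monocytes/macrophages, 4 in B cells or plasma cells and 2 in T cells. Of the 23, 14 were highest in neutrophils in each library separately. The share of all genes that was highest in each class was not counted, so these numbers cannot be read as particular to the members.

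The next question was whether the Fos/Jun, Egr/Nr4a and heat-shock genes were high in the same cells. Monocytes/macrophages were thinned to 2000 UMIs each, which left 1430 KO and 308 DKO cells, and were ordered by their Fos/Jun sum and split at the quartiles into 4 bins within each library. Tied sums stayed together, so the bins were of unequal size, with 467 and 326 KO cells and 80 and 75 DKO cells in the lowest and highest. From the lowest to the highest bin the Egr/Nr4a sum was 3.801, 4.80, 6.08 and 17.8 UMIs per 10000 in KO, and 3.31, 4.49, 8.31 and 22.7 in DKO. The heat-shock sum was 15.3, 17.0, 20.6 and 36 in KO, and 12.0, 15.5, 20 and 32.5 in DKO. Both groups were therefore higher in the cells with most Fos/Jun transcripts, in both libraries, and most of the difference lay between the third and the highest bin. The inducible chaperones Hspa1a, Hspa1b and Dnajb1 summed to 1.65 in the lowest and 13.5 in the highest bin in KO and to 0.62 and 12.7 in DKO. Hspa8 stood at 13.7 and 22.5 in KO and at 11.4 and 19.9 in DKO.

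**Figure D3:**
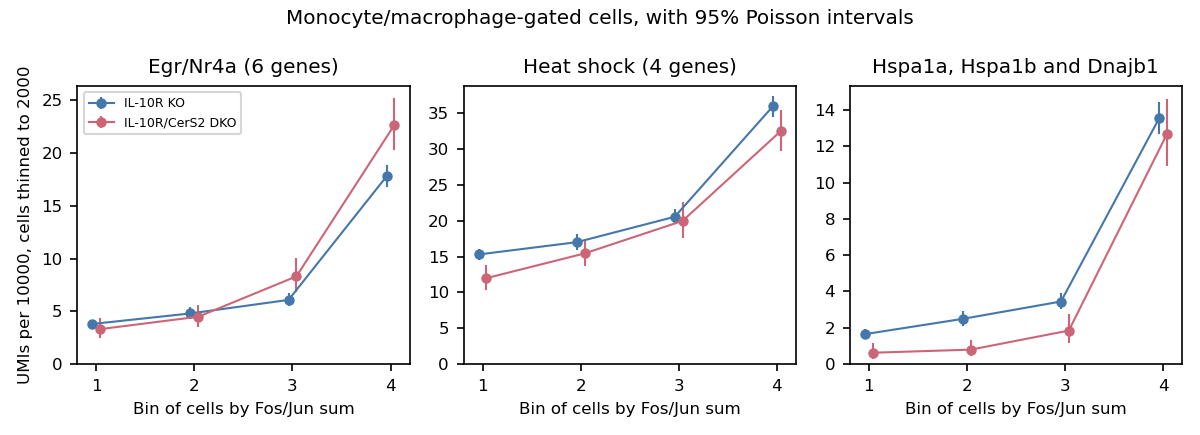
Points give the summed level of Egr/Nr4a genes, all 4 heat-shock genes and the 3 inducible heat-shock genes in UMIs per 10000, in monocyte/macrophage cells thinned to 2000 UMIs and ordered into 4 bins by their Fos/Jun sum, with exact 95% Poisson intervals. In the highest bin the Egr/Nr4a sum was 17.8 in KO and 22.7 in DKO, against 3.801 and 3.31 in the lowest.

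Single members moved with the Fos/Jun sum in most groups. Egr1 was at 0.33 per 10000 in the lowest and 6.21 in the highest bin in KO, and in DKO at 0 UMIs of 160000 in the lowest, which allows up to 0.231, and 9.80 in the highest. Atf3 was at 1.27 and 14.5 in KO and at 0.69 and 24.4 in DKO. Hspa1a was at 0.43 and 5.98 in KO and at 0.06 and 6.13 in DKO, and Hspa1b at 0.74 and 6.47 in KO and at 0.06 and 5.40 in DKO, where the lowest bin held 1 UMI of each gene. Dusp1, Zfp36 and Ppp1r15a, whose promoter windows are printed above, stood at 10.8, 12.5 and 5.32 in the highest KO bin, against 1.75, 2.17 and 0.74 in the lowest. In all, 26 of the 33 members outside the Fos/Jun group were higher by 1.5-fold or more in the highest than in the lowest bin in both libraries, where 12.4% of 2347 genes were, and 0 of 33 were lower, where 3.62% of genes were. Egr2, Egr3, Plk2 and Plk3 had too few UMIs to be counted. The other 3 members did not pass. Btg1 was lower in the highest bin, at 37.9 and 29.9 in KO and 32.9 and 22.9 in DKO, Dusp5 stood at 3.97 and 3.76 in KO and 2.44 and 2.33 in DKO, and Nr4a3 was past 1.5-fold in KO alone, at 1.68 and 2.78 against 1.81 and 2.40 in DKO.

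The cells of the bins differed in other respects. The C1q-high macrophage subgate made up 38.97% of the lowest and 52.8% of the highest bin in KO and 48.8% and 64.0% in DKO, and the monocyte subgate 41.1% and 29.8% in KO and 36.2% and 22.7% in DKO. The median share of ribosomal protein transcripts was 18.6% and 15.2% in KO and 19.3% and 15% in DKO, and the median depth before thinning 5771 and 5203 UMIs in KO and 5793 and 4776 in DKO. The median mitochondrial share was 1.25% and 1.18% in KO, and 1.07% and 1.36% in DKO. The part of these differences in the joint levels was not tested, but the relation was also seen within subgates. Across the 1430 KO and 308 DKO cells the Fos/Jun sum had a rank correlation of 0.383 in KO and 0.534 in DKO with the Egr/Nr4a sum, and of 0.332 and 0.384 with the heat-shock sum. Within the C1q-high subgate these were 0.460 and 0.620, and 0.372 and 0.485. Within the monocyte subgate they were 0.283 and 0.406, and 0.296 and 0.273. Egr/Nr4a and heat-shock sums had a rank correlation with each other of 0.192 and 0.229 over all monocytes/macrophages. These correlations describe cells that share a library, a preparation and a common depth, and they carry no test.

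In T cells the Fos/Jun sum had a rank correlation of 0.316 in KO (244 cells) and 0.404 in DKO (95 cells) with the Egr/Nr4a sum and of 0.227 and 0.202 with the heat-shock sum. In B cells or plasma cells the values were 0.228 and 0.239, and 0.289 and 0.320 (167 and 130 cells). Neutrophils were thinned to 1000 UMIs, and over 112 KO and 34 DKO cells the values were 0.158 and 0.117 for Egr/Nr4a genes and 0.022 and -0.020 for heat-shock genes, of which few UMIs were left. At this depth the Egr/Nr4a values of other classes were also lower, at 0.345 and 0.440 in monocytes/macrophages and 0.233 and 0.292 in T cells. In the 37 KO neutrophils that reached 2000 UMIs the Egr/Nr4a value was 0.557, and too few DKO neutrophils did so. Unthinned, neutrophils gave 0.269 and 0.234. Among single pairs of members in monocytes/macrophages, over 666 pairs of the 37 members found in at least 5% of cells, the median rank correlation was 0.122 in KO and 0.132 in DKO. The tightest pair was Hspa1a and Hspa1b, at 0.52 and 0.55, followed by Egr1 and Atf3 at 0.40 and 0.53. Btg1 was in the lowest pairs, such as with Gadd45b at -0.15 and -0.29.

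To ask how these genes differed when CerS2 was lost on top of the IL-10 receptor, DKO was set against KO within each class. In monocytes/macrophages the sum of all 39 members was nearly the same, with a log2 ratio of DKO over KO of 0.06 (0.04 to 0.08), against a median of 0.08 over the 9819 genes with at least 20 UMIs. This ratio was -0.0443 when libraries were scaled by TMM and -0.0032 when subgates were weighted as in KO, so its direction depended on the scaling and the weighting. The groups differed from each other. Egr/Nr4a genes were higher in DKO, at 0.29 (0.22 to 0.37), growth arrest and stress genes at 0.22 (0.17 to 0.27), Klf genes at 0.20 (0.13 to 0.27) and Fos/Jun genes at 0.16 (0.12 to 0.19). Of the 8 growth arrest and stress genes, however, 3 were above 0 and 5 below, with a median of -0.03. The rise of that sum lay mainly in Atf3, given below. Heat-shock genes were lower in DKO, at -0.14 (-0.19 to -0.09), and their 3 inducible members at -0.38 (-0.50 to -0.27). RNA decay genes were at -0.07 (-0.11 to -0.04), phosphatases at -0.01 (-0.08 to 0.07) and Ier genes at 0.03 (-0.04 to 0.10). Of the 4 genes in the RNA decay group 2 were above 0 and 2 below. Btg1, which held most of that sum, was lower in DKO.

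Past 1.5-fold were 2 members higher in DKO monocytes/macrophages, where 11.8% of the 9819 genes were, and 2 lower, where 8.49% were. Atf3 (ENSMUSG00000026628, chromosome 1, 191170296 to 191218039, minus strand, GRCm38) was at 4.47 per 10000 in KO and 7.21 in DKO, 0.69 (0.60 to 0.78) on the log2 scale, and was found in 46.2% of KO and 55.7% of DKO cells. Egr3 (ENSMUSG00000033730, chromosome 14, 70077203 to 70082614, plus strand) was at 0.068 and 0.117, a log2 ratio of 0.80 (0.02 to 1.5) that rested on few UMIs, with 12 of the 23 DKO UMIs in 1 cell. Hspa1b (ENSMUSG00000090877, chromosome 17, 34956436 to 34959238, minus strand) was lower in DKO, at 2.12 and 1.39, a log2 ratio of -0.61 (-0.80 to -0.43). Its neighbour Hspa1a was at 1.73 and 1.46, or -0.25 (-0.44 to -0.07). Maff (ENSMUSG00000042622, chromosome 15, 79346621 to 79359076, plus strand), a small Maf factor, was at 0.87 and 0.55, or -0.66 (-0.97 to -0.38). At a fold of 2 no member was called. Short of 1.5-fold, members higher in DKO with intervals above 0 included Klf2 (1.86 and 2.67), Nr4a1 (1.49 and 2.14), Hes1 (1.07 and 1.52) and Egr1 (1.60 and 2.15), and Dusp5 (3.98 and 2.77) was lower. Fos, Junb, Dusp1, Ppp1r15a and Ier5 also had intervals above 0. These are examples, and the share of all genes with intervals clear of 0 was not counted. The 12 members given no value so far in this class, Jun, Fosb, Egr2, Nr4a2, Dnajb1, Zfp36l1, Dusp2, Csrnp1, Plk2, Plk3, Rhob and Ier5, stood between 0.21 and 3 per 10000, with log2 ratios from -0.32 for Plk2 to 0.30 for Nr4a2.

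**Figure D4:**
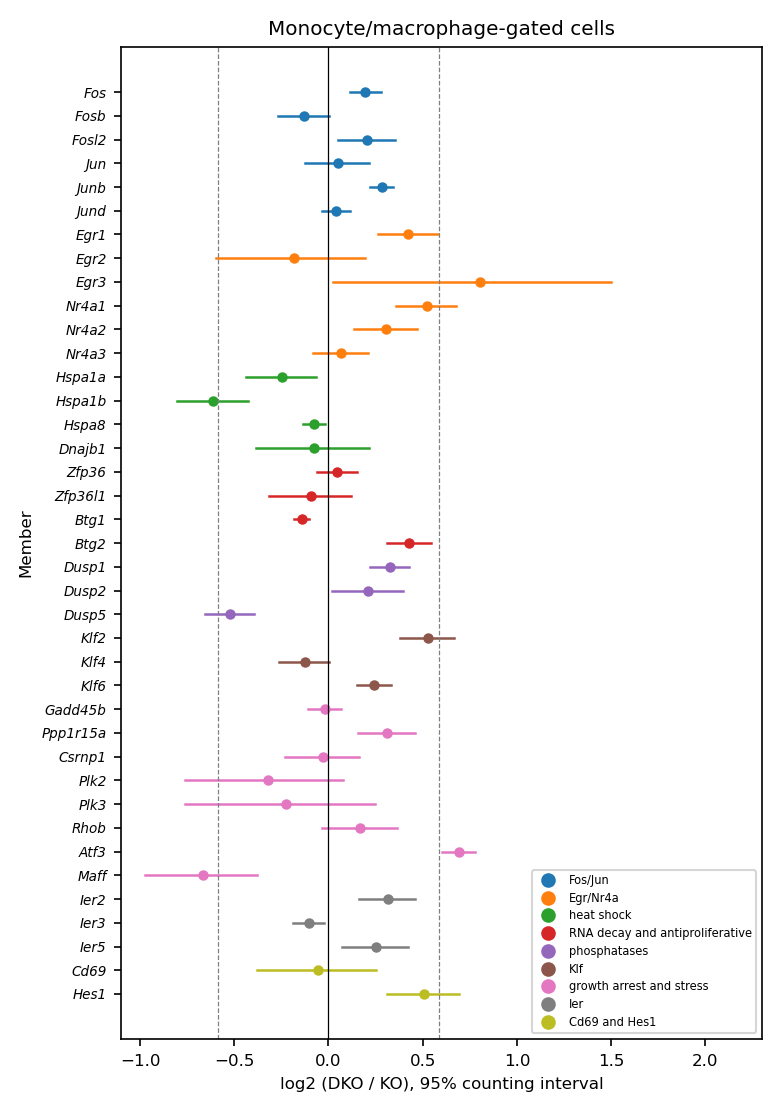
Points give the log2 ratio of DKO over KO for each of the 39 members in monocyte/macrophage cells with its 95% counting interval, coloured by group, and the dashed lines mark 1.5-fold in each direction. Atf3 (0.69) and Egr3 (0.80) lay beyond the upper line and Hspa1b (-0.61) and Maff (-0.66) beyond the lower one.

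The monocyte/macrophage class was not of the same make-up in both libraries, since cells of the Arg1/Nos2 subgate numbered 166 in KO and 2 in DKO. Within the C1q-high subgate (699 and 170 cells) the Egr/Nr4a ratio was 0.28 (0.18 to 0.38), the heat-shock ratio -0.27 (-0.34 to -0.20) and that of inducible members -0.39 (-0.55 to -0.25). Within the monocyte subgate (553 and 113 cells) the Egr/Nr4a sum was 4.64 in KO and 7.18 in DKO, a ratio of 0.63 (0.47 to 0.79), and inducible heat-shock genes were at 4.21 and 2.43, a ratio of -0.79 (-1.05 to -0.54). Higher Egr/Nr4a and lower inducible heat-shock sums in DKO were thus measured in both subgates as well as in the whole class. In the monocyte subgate, however, 1 of the 3 inducible heat-shock genes was above 0 and 2 were below. The Fos/Jun ratio was 0.14 (0.10 to 0.19) in C1q-high macrophages and 0.13 (0.06 to 0.20) in monocytes. Of its 6 genes 4 were above 0 and 2 below in the former, and 3 above and 3 below in the latter, with a median of -0.01 there. Ier genes, at 0.03 in the whole class, were higher in DKO within each subgate, at 0.24 (0.15 to 0.33) in C1q-high macrophages and 0.32 (0.20 to 0.43) in monocytes. Of the 4 single genes past 1.5-fold, Hspa1b was short of it in the C1q-high subgate, at -0.57 (-0.80 to -0.35), and past it in the monocyte subgate, at -1.27 (-1.74 to -0.85). Atf3 was past it in the C1q-high subgate, at 0.72 (0.61 to 0.83), but not in the monocyte subgate, at 0.41 (0.23 to 0.59). Maff was past it in neither, at -0.51 (-0.90 to -0.17) and -0.45 (-1.26 to 0.23), and all 23 DKO UMIs of Egr3 lay in the C1q-high subgate. Across single cells the spread within a library was far wider than these differences, with quartiles of the Egr/Nr4a sum of 1.55 and 10.1 per 10000 around a median of 4.34 in KO and of 1.83 and 12.9 around 5.09 in DKO. More than 50% of monocytes/macrophages, 53.2% in KO and 56.9% in DKO, had no UMI of an inducible heat-shock gene.

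In neutrophils the libraries differed in the other direction, over 119 KO and 35 DKO cells. The sum of all members was lower in DKO, at a log2 ratio of -0.29 (-0.37 to -0.21), with Fos/Jun genes at -0.47 (-0.65 to -0.30), Egr/Nr4a genes at -0.50 (-0.98 to -0.07), growth arrest and stress genes at -0.67 (-0.90 to -0.45) and phosphatases at -0.93 (-1.29 to -0.60). Junb was at 31.4 per 10000 in KO and 11.9 in DKO and Dusp1 at 18.4 and 9.14, whereas Btg1 was at 86.3 and 93.8 and Btg2 at 25.5 and 24.1. Past 1.5-fold, 15 of 39 members were lower, where 21.7% of the 1508 genes with at least 20 UMIs were, and 3 were higher, Jund, Klf2 and Rhob, where 13.9% were. The count of 8 other members was under 20 UMIs. The median of all genes was -0.06. Jund, at 12.5 and 21.8, was thus higher in DKO where Jun and Junb were lower. The heat-shock ratio of -0.12 had a wide interval (-0.91 to 0.57). The median mitochondrial share of these cells was 0.216% in KO and 0.116% in DKO, and its part in the difference was not tested.

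**Figure D5:**
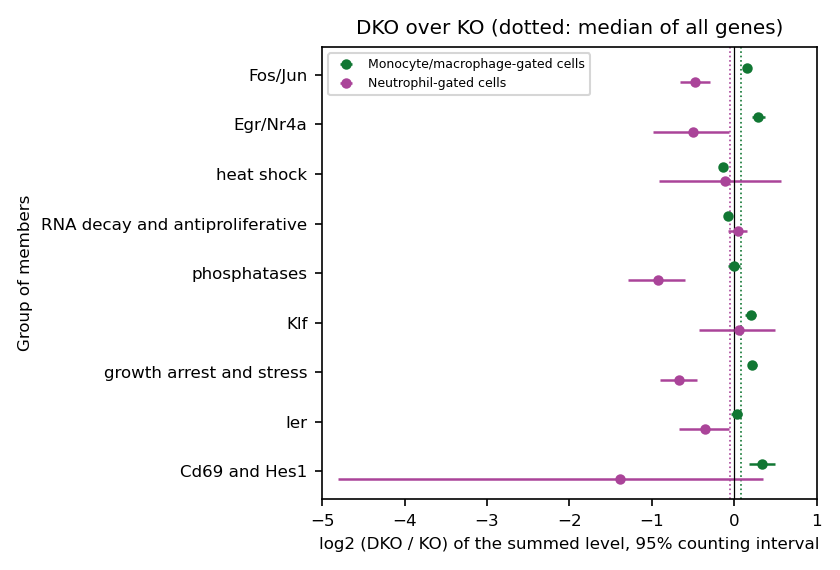
Points give the log2 ratio of DKO over KO for the summed level of each group of members in monocyte/macrophage and in neutrophil cells, with 95% counting intervals, and dotted lines give the median over all genes of each class. Fos/Jun genes were at 0.16 in monocytes/macrophages and -0.47 in neutrophils, and Egr/Nr4a genes at 0.29 and -0.50.

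Lymphocytes were compared in the same way. In T cells all members together had a log2 ratio of 0.06 (0.01 to 0.11), Fos/Jun genes 0.13 (0.04 to 0.21) and Egr/Nr4a genes 0.02 (-0.19 to 0.23). Gene by gene, 14 members were above 0 and 21 below, with a median of -0.08, where the median of 6370 genes was -0.07. Of the Fos/Jun genes 3 were above 0 and 3 below, with a median of -0.05. Inducible heat-shock genes were lower in DKO T cells, at 3.58 and 2.06 per 10000 or -0.79 (-1.15 to -0.45), but few cells carried these UMIs, with 26 of 251 KO and 3 of 98 DKO T cells positive for Hspa1a and 34 of 42 DKO UMIs of Hspa1b in 1 cell. Ier genes were higher, at 2.91 and 4.50 or 0.63 (0.36 to 0.89). In B cells or plasma cells all members together had a ratio of 0.22 (0.16 to 0.27), and heat-shock genes one of 0.37 (0.18 to 0.56), with Hspa8 at 6.28 and 8.31. Gene by gene, 22 members were above 0 and 11 below, with a median of 0.17, where the median of 5226 genes was 0.14.

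Related genes outside the 39 members were taken as 2 lists of 20. Of other immediate early and feedback genes, 18 had at least 20 UMIs in monocytes/macrophages, and 1 was higher (Ier5l) and 2 were lower (Dusp6 and Sgk1) in DKO by 1.5-fold, where 11.8% and 8.49% of all genes were. Their sum was 71.9 per 10000 in KO and 70.3 in DKO. Sgk1, a kinase of the glucocorticoid response, was at 2.47 and 1.26. Of other heat-shock and chaperone genes 19 had at least 20 UMIs, and 0 were higher and 3 were lower against the same shares, with Hsph1, the partner of Hspa1a and Hspa1b in protein refolding, at 0.48 and 0.24. Their sum was 56.3 in KO and 56.1 in DKO. With the Fos/Jun bins of monocytes/macrophages, 9 of the 20 early genes were higher in the highest bin of both libraries, including Nfkbia, Tnfaip3, Socs3 and Irf1, and 13 of the 20 had enough UMIs to be counted. Of the 20 chaperones 9 could be counted, and 2 were higher, Hsp90aa1 and Dnaja1. Over all genes the share was 12.4%.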

How the data were processed

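Colon cells had been sorted and processed in droplets for 3′ single-cell RNA-seq, and per the labels the authors used Cell Ranger 6.0.1 and Seurat 4.3.0 with the build mm10. Their deposited tables hold unnormalised counts of UMIs, and free RNA was not corrected for. Kept barcodes had 300 to 5000 genes and no more than 10% mitochondrial UMIs. A cell entered a class with at least 3 markers of it, the largest share of that list and a lead of 2 markers over other classes; cells over 1 class were left out as mixed. Seurat 5.3.0 clusters (R 4.3.3) and Scrublet scores (scanpy 1.11.5), by which doublets were not removed in the main values, served alternatives, as did TMM scaling (edgeR 4.0.16). Summed UMIs per 10000 have exact Poisson intervals, ratios exact conditional binomial intervals and shares exact Clopper-Pearson ones (scipy 1.17.1, Python 3.11.15). Log2 ratios had 0.5 counts added to each sum. A gene was called past 1.5-fold with at least 20 UMIs over the cells compared, and for bins and classes in both libraries. No test was run, since there was 1 library per genotype. Text values are given for members past 1.5-fold between libraries in monocytes/macrophages, the 2 with most UMIs in each group, the 8 with the widest range over classes, and others named after their values were seen. Scripts were tested on simulated data. The members and lists were chosen with earlier results of these data known.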

Additional observations from a re-analysis of the deposited data

Results flagged for a closer look

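Some groups and members moved in opposite directions between the libraries in neutrophils and in monocytes/macrophages. Those listed were picked because the counting intervals of both ratios were clear of 0, on opposite sides. Single members were drawn from the 31 with at least 20 UMIs in neutrophils. The groups not listed for neutrophils did not meet this rule, and the share of all genes that met it was not counted. For the sum of all members in monocytes/macrophages the sign rested on the scaling and the weighting of subgates, with values of -0.0443 by TMM and -0.00323 with subgates weighted as in KO. The difference between the classes was not tested, since there was 1 library per genotype. As log2 ratios of DKO over KO, the sum of all 39 members was -0.29 in neutrophils and 0.06 in monocytes/macrophages, that of Fos/Jun genes -0.47 and 0.16, that of Egr/Nr4a genes -0.50 and 0.29, and that of growth arrest and stress genes -0.67 and 0.22. In monocytes/macrophages 3 of the 8 growth arrest and stress genes were above 0 and 5 below, so the rise of that sum lay mainly in Atf3. Among single genes Fos was at -0.60 in neutrophils and 0.20 in monocytes/macrophages, Junb at -1.39 and 0.28, and Nr4a1 at -1.52 and 0.52. Dusp1 was at -0.99 and 0.32, and Ppp1r15a at -0.96 and 0.31. Atf3 was at -1.22 and 0.69, and Ier5 at -1.14 and 0.25. The DKO neutrophils were 35 cells, and the DKO sums of Nr4a1 and Ier5 in them were 6 UMIs each. In B cells or plasma cells the heat-shock sum was higher in DKO, at 0.37, against -0.14 in monocytes/macrophages, and the sum of RNA decay and antiproliferative genes was at 0.23 against -0.07. In each of these classes 2 of the 4 RNA decay and antiproliferative genes were above 0 and 2 below, and most of the sum was Btg1. The differences between these classes were not tested either.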

How the results depend on the processing

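No paired analysis was possible because each genotype had 1 library. The order of classes held in 6 of 6 class pairs under each alternative tried. Other values moved. For ratios this means outside their counting interval, and for correlations by more than the standard deviation between the libraries. For counts of members it means by more than 1.5-fold. With TMM scaling, which shifted all log2 ratios by 0.11 in monocytes/macrophages and 0.20 in neutrophils, the ratio of all 39 members turned to -0.0443, Fos/Jun went to 0.0496, Egr/Nr4a to 0.19, heat-shock genes to -0.24 and neutrophil Fos/Jun genes to -0.68. With subgates weighted as in KO the ratio of all members turned to -0.00323 and that of Fos/Jun was 0.0778, near the unweighted median of 0.08 over all genes. As means over cells, all members were at 0.11, Fos/Jun at 0.22 and Egr/Nr4a at 0.38. All members were at 0.0902 in Seurat clusters and 0.0808 without the 5% highest doublet scores. Heat-shock genes were at -0.19 without Arg1/Nos2 cells and -0.38 for inducible members alone. At a fold of 2, 0 members were called, against 4. Unthinned, the correlation of Fos/Jun with Egr/Nr4a was 0.49 in KO, and with heat-shock genes 0.40 and 0.48 in KO and DKO. After thinning to 1000 UMIs the latter was 0.28 and 0.32. At 2000 UMIs, Fos/Jun with inducible heat-shock genes alone was 0.43 in DKO. In Seurat clusters 4 members were higher in T cells, against 2. The remaining 62 group values moved less. Over the alternatives, which included choices made after the data were seen for neutrophils and class counts, Atf3 ranged from 0.51 to 0.74, Egr3 from 0.62 to 0.98, Hspa1b from -0.91 to -0.52 and Maff from -0.85 to -0.53.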

Other observations

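Cells outside the 4 main classes also carried members. Cells that passed no gate (184 in KO, 57 in DKO) had a median per-cell sum of 208 and 211 UMIs per 10000 over the 39 members, against 131 and 141 in monocytes/macrophages, at a lower median depth of 1568 and 2324 UMIs. The 10 KO and 2 DKO epithelial cells had class sums of 272 and 366 per 10000, with Fos/Jun genes at 85.6 and 133. The 11 cells of each library in the dendritic cell gate had an Egr/Nr4a sum of 20.5 (18.1 to 23.2) in KO and 16.2 (13.8 to 18.8) in DKO. This was above that of monocytes/macrophages (7.43 and 9.09), while their Fos/Jun sum was lower, at 18.0 and 22.1 against 34.6 and 38.6. The cluster named dendritic from the same markers was larger, with 142 KO and 61 DKO cells, so the gate may have missed many dendritic cells.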
